A study of Homo sapiens with 12 samples.

Results

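The glutathione peroxidases described here are the 6 genes GPX1, GPX2, GPX3, GPX4, GPX7 and GPX8, taken by symbol from the 20114 genes of the deposited RNA tables. GPX3 had drawn attention by its higher RNA level in the resistant line of these same libraries, so the RNA difference of the family between the lines is given as a description, without p-values. H3K27ac peaks around GPX3 are listed for a 100 kb window of chromosome 5 in hg19, in which the peak regions run from position 150383587 to 150450481. The cells were of Caki-1, a long-established line from a human kidney cancer (renal cell carcinoma). The parental cells are labelled wild-type and were kept in RPMI medium. The cabozantinib-resistant cells were derived from the same line in McCoy's medium with cabozantinib, a kinase inhibitor with MET, AXL and VEGF receptors among its targets, from 5 µM up to 20 µM over 2 months, and were then held in 10 µM. Drug, medium and selection therefore differ together between the lines and cannot be told apart, and the labels do not say whether the resistant cells are 1 clone or whether replicates are separate cultures. RNA and H3K27ac, a histone acetylation of active promoters and enhancers, were each measured in 2 libraries per line.

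Glutathione peroxidases reduce hydrogen peroxide and lipid peroxides, mostly at the expense of glutathione, which glutathione reductase then regenerates with NADPH. GPX1 is the abundant cytosolic and mitochondrial enzyme, GPX2 is the form of the gut epithelium, and GPX4 reduces phospholipid peroxides within membranes and is the main brake on ferroptosis. GPX3 is secreted, and the proximal tubule of the kidney is the main source of the enzyme in plasma. These 4 human enzymes carry selenocysteine in the active site. GPX7 and GPX8, of the endoplasmic reticulum, carry cysteine there.

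Since the results turn on GPX3, the 250 bases before its RefSeq start are shown, at chr5:151020341-151020590 of GRCh38.p14 on the plus strand. The promoter reference table is in GRCh38.p14 and the peaks are in hg19, so the 2 were not placed on each other. Capitals mark the sole match to the hypoxia response element core.
GPX3 promoter: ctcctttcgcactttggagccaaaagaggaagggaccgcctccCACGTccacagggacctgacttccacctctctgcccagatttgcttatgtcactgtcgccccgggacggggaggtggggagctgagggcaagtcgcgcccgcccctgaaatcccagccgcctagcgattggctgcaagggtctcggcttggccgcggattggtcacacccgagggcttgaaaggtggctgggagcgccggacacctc
The stretch held 17 CG dinucleotides, against a median of 11 over 35116 promoters of the same length, and its GC content was 64.4%. The core NCGTG, searched on both strands, matched at 1 place and is found in 61.1% of all promoters. The antioxidant response element core TGANNNNGC, found in 35.2% of promoters, and the AP-1 motif TGANTCA, found in 6.57%, had no match in these letters. TGANNNNGC matched once each in the promoters of GPX2 and GPX7. In GPX8 the window held 3 CG dinucleotides and no match to any of the 3 motifs, and in GPX1 it held 20 CG dinucleotides and 3 matches to NCGTG, 2 of which overlap.

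The 4 RNA libraries held 10584083 to 14664723 estimated counts. Between the resistant replicates the chi-square statistic per gene was 46.4, against 1.93 between the parental replicates, so the spread of a gene comes mostly from the resistant pair. Mitochondrial transcripts took 5.08% and 5.20% of parental counts and 7.72% and 9.57% of resistant counts. Of 12 markers of renal tubule and renal carcinoma, 8 to 10 had counts in each library, with a summed level of 5398 to 5401 CPM (counts scaled to library size) in the parental line and 3787 to 4431 in the resistant line, while PAX2 and LRP2 were at 0 in all 4. Of 13 measured markers of blood, endothelial and stromal cells, 7 to 9 had counts in each library, CD3E, HBB and CDH5 were at 0 in all 4, and the summed level of the list was 165 to 167 CPM in the parental line and 77.6 to 80.2 in the resistant line. The part of these differences in the results below was not tested.

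GPX3 was the member that stood apart. The parental libraries held 1090 and 1103 estimated counts of it, the resistant libraries 13845 and 14922. In TPM, which is scaled by transcript length and so allows genes to be compared, the parental levels were 102 and 101 and the resistant levels 924 and 962. Both resistant libraries lay far above both parental ones, and within each line the TPM values lay close together. The mean TPM went from 101.9 ± 0.644 (SD, n = 2) to 943 ± 26.8, a ratio of 9.25. In bulk RNA, more cells with a transcript and more of it per cell cannot be told apart. By this measure GPX3 moved from place 1223 and 1204 among all genes in the parental libraries to place 141 and 147 in the resistant ones.

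In CPM with TMM factors, the scale the test uses, the parental libraries stood at 106.1 and 106.9 for GPX3 and the resistant libraries at 895 and 1159. The resistant pair was further apart in CPM than in TPM. The log2 fold change was 3.27 ± 0.19 (SE), in place 31 of 12792 tested genes, and in place 3 among the 10917 whose mean log2 CPM was at least 2. GPX3 passed edgeR's quasi-likelihood test at an adjusted p of 0.05, as did 6.37% of the 12792 genes tested, and GPX1, GPX4 and GPX8 did not. Nothing is read from this count of 1 among 4, since GPX3 was chosen on this contrast.

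GPX4 was next in size of difference. Parental levels were 459 and 454 TPM and resistant levels 672 and 749 TPM, so both resistant libraries were above both parental ones. In CPM the levels were 221.8 and 219.2 against 302 and 413, a log2 fold change of 0.70 ± 0.19 (SE). The difference did not pass in the fit described above or by limma-voom. It did pass with a replicate block, with library totals, by limma-trend on TPM and by DESeq2. Over all genes the fit described above called 379 higher and 436 lower. The replicate block called 860 and 1020, DESeq2 576 and 715, and library totals 531 and 373. Limma-trend called 243 and 282 on log2(TPM + 1), and 217 and 243 on log2(TPM + 0.1). For GPX4 the log2 fold change was 0.91 without resistant replicate 1 and 0.45 without resistant replicate 2, where the spread comes from the parental pair alone. Without parental replicate 1 or 2 it was 0.70 or 0.68. No call of GPX4 is given here for fits that leave 1 library in a line.

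GPX1 had parental levels of 484 and 446 TPM and resistant levels of 535 and 625 TPM. The groups did not overlap, but resistant replicate 1 lay close to the parental range in CPM, at 341 against 329 and 304, while resistant replicate 2 stood at 488. The log2 fold change was 0.39 ± 0.20 (SE). It was 0.63 without resistant replicate 1 and 0.10 without resistant replicate 2. The size of the difference thus rests on which resistant library is kept. GPX1 has processed pseudogenes, GPX1P1 and GPX1P2, whose reads the counting could have split with it, and its level is uncertain to that extent.

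GPX8, a membrane protein of the endoplasmic reticulum, was the member with the lower values in the resistant line. Parental levels were 52.1 and 46.8 TPM and resistant levels 44.1 and 39.7 TPM. Both resistant libraries were below both parental ones. In TPM the parental pair was further apart than the lower of it was from the nearest resistant library, but in CPM, at 63.2 and 60.3 against 51.1 and 52.7, it was not. The log2 fold change was -0.25 ± 0.14 (SE), and GPX8 did not pass in any alternative that kept all 4 libraries. Without resistant replicate 1 or 2 the value was -0.23 or -0.28. In CPM the lines did not overlap for any of the 4 tested members, 3 higher and 1 lower in the resistant line. That was so for 60.6% of all tested genes, 30.9% higher and 29.7% lower, and nothing is read from it.

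The remaining members were at or near 0. GPX2 had 0 counts in each of the 4 libraries, which allows a level of up to 0.194 to 0.292 CPM per library at 3 counts, a limit that covers counting error only. GPX7 had 1 count in resistant replicate 1 and 0 in the other 3 libraries. Neither was tested, and no fold is given for them. Of the family genes outside the 6 members, GPX5 had 2 counts in parental replicate 2 and GPX6 had 0 in every library.

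**Figure D1:**
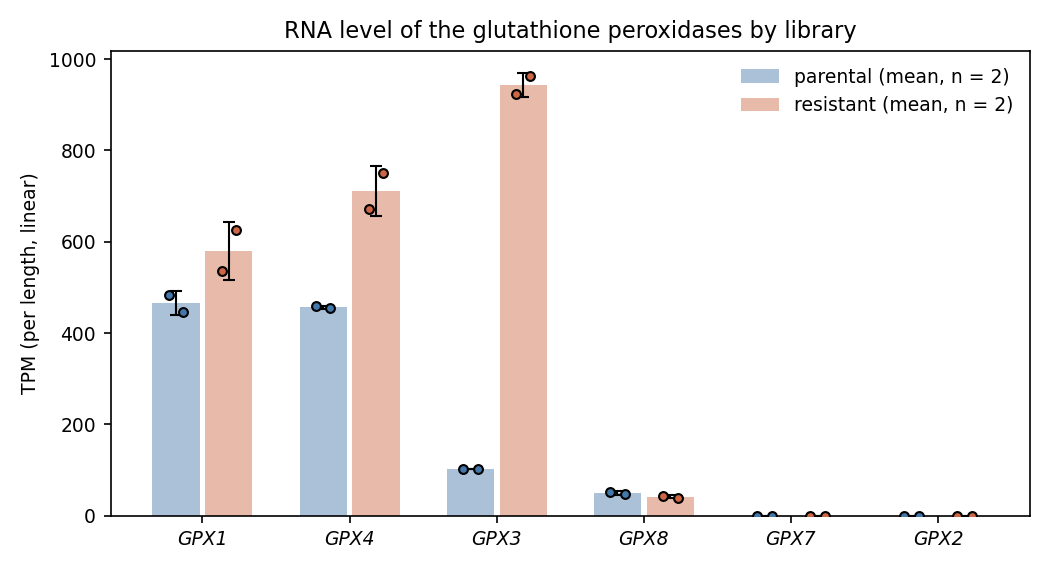
RNA level in TPM (vertical axis, linear) of each glutathione peroxidase in the parental and resistant lines. Bars are means of 2 libraries, error bars are SD and points are single libraries. GPX3 stands near 102 for parental libraries and at 924 and 962 for resistant libraries, while GPX7 and GPX2 lie at or near 0.

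The order of the genes by TPM differed between the lines. In the parental line GPX1 and GPX4 came first with overlapping values, GPX3 followed and GPX8 was last of the 4 detected genes. In the resistant line GPX3 came first, GPX4 followed and GPX1 came next, with no overlap between neighbours in this order, and GPX8 again came last. The summed TPM of the 6 members was 1097 and 1049 for the parental pair, and 2175 and 2376 for the resistant pair. GPX3 made up 9.33% and 9.67% of the parental sums and 42.5% and 40.5% of the resistant sums. Without GPX3 the parental sums were 995 and 947 TPM and the resistant sums 1251 and 1414 TPM.

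**Figure D2:**
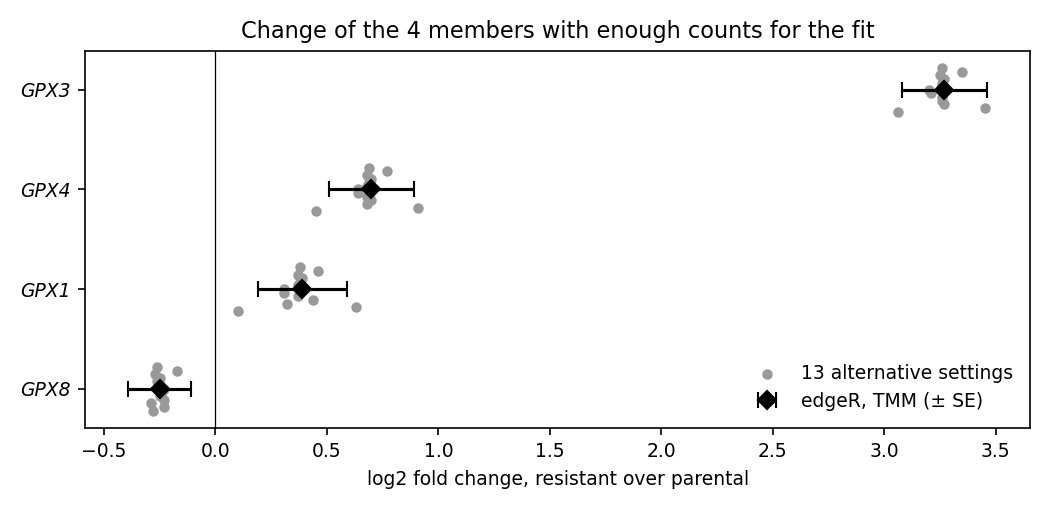
Log2 fold change of the resistant over the parental line (horizontal axis) for the 4 members tested. Diamonds show the edgeR fit with its SE and grey points show 13 other settings. GPX3 lies between 3.06 and 3.45 in all of them, whereas GPX1 ranges from 0.10 to 0.63.

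Genes with a pattern like that of GPX3 were sought among the other 10916 genes at that minimum mean level, by the Euclidean distance between centred log2 CPM profiles over the 4 RNA libraries. The nearest was CHI3L1, a secreted chitinase-like glycoprotein, at a distance of 0.305, with parental levels of 14.4 and 13.4 CPM and resistant levels of 105.6 and 118. VNN1, a membrane-anchored pantetheinase, followed at a distance of 0.465, with 4.58 and 5.43 CPM against 58.9 and 70.8. CES4A, a carboxylesterase-family gene, CPVL, a serine carboxypeptidase-like gene, and CCNO, a cyclin-family gene, came next at distances of 0.593, 0.642 and 0.662. With 4 libraries in 2 lines such a distance reflects mainly the size of the difference between the lines.

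H3K27ac around GPX3 was more extensive in the resistant line. Within the 100 kb window the authors' lists held 11 and 15 parental peaks and 23 and 13 resistant peaks, so the numbers of peaks overlapped between the lines. With 2 lists per line these are descriptions, and no test was run. The covered length did not: parental peaks covered 18797 and 24771 bp, resistant peaks 34736 and 32815 bp. Over the whole lists parental peaks covered 56.3 and 84.9 Mb and resistant peaks 46 and 86.8 Mb, which overlap. Among 17174 stretches of 100 kb that held a peak, 12.3% had more covered length in both resistant lists than in both parental ones. The score in these lists is the authors' own, and no source at hand says what it measures. It is used to describe peaks and to order gained regions, and its scale can differ between lists.

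Peaks of the 4 lists that overlapped by at least 1 bp formed 20 regions in the window. Of these, 2 had peaks in the resistant libraries, both of them, and none in the parental ones, called gained here, against 3.43% of the 89076 regions on the reference chromosomes. The reverse pattern, called lost, was seen for 0 regions of the window and for 3.92% of all regions. A further 4 regions were present in all 4 libraries, and 14 were in some other combination. Of those 14 regions, 10 had peaks in 1 resistant library alone and 2 in 1 parental library alone, patterns that 23.5% and 26.5% of all regions showed.

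The first gained region lay at chr5:150385667-150386789 in hg19. Its peaks scored 18.49 in resistant replicate 1 and 11.93 in resistant replicate 2. Within their own lists these peaks were in place 4803 of 52367 and in place 17389 of 52856. Ordered by the weaker of both scores, the region was 34th of 3055 gained regions, whose median was 4.31. This order sets side by side the scores of 2 lists, whose medians over all peaks were 6.31 and 7.48. The second gained region lay 23.6 kb further along, at chr5:150409248-150410220, with scores of 4.12 and 8.04, and was 1631st in the same order. By this order the first of these was high among gained regions and the second was ordinary.

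Between them lay a region at chr5:150400032-150401409 that was present in 3 of the 4 libraries. It was covered for 1111 and 988 bp in the resistant libraries, with scores of 10.45 and 12.94. In parental replicate 2 it was covered for 379 bp with a score of 3.10, and parental replicate 1 had no peak there. With peaks restricted to a score of 5 or more, this region counted as gained and the second gained region did not.

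A region shared by all libraries at chr5:150391400-150397114 was wider in the resistant line. Parental peaks covered 1057 and 2725 bp of it and resistant peaks 4543 and 5715 bp. The region at chr5:150416951-150421809 was covered for 2210 and 2176 bp by parental peaks and for 3944 and 4274 bp by resistant peaks. The broadest region, at chr5:150430309-150450481, differed little, with 15693 and 15053 bp under parental peaks and 15858 and 17766 bp under resistant peaks. The position of the GPX3 start among these regions was not determined here, since no annotation in hg19 was used, and the window can hold regions of the neighbouring gene TNIP1 as well.

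**Figure D3:**
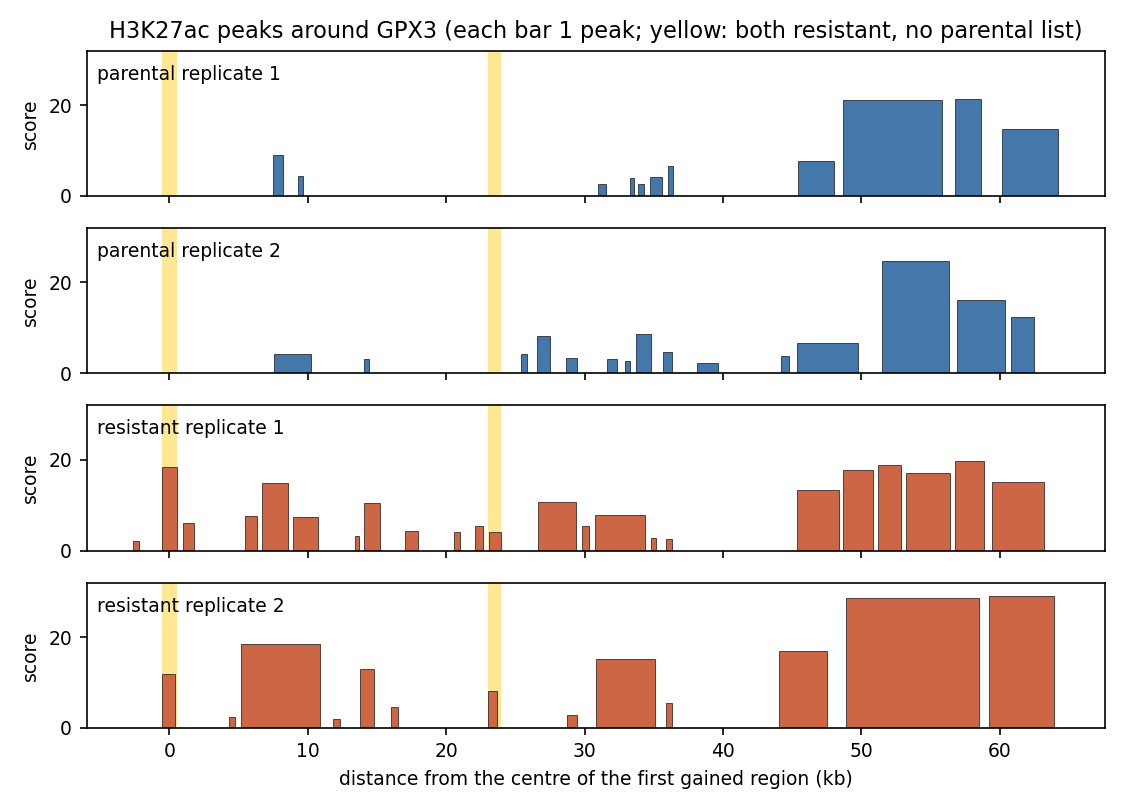
H3K27ac peaks in the window, 1 panel per library, by distance in kb from the centre of the first gained region (horizontal axis) and the authors' score (vertical axis). Each bar is 1 peak, drawn to its length, and yellow bands mark the 2 gained regions. The broad block at the right is present in all 4 libraries, whereas the left of the window is filled mainly in the resistant ones.

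The surroundings of the window were read in steps of 100 kb up to 1 Mb on either side. Of these 20 steps, 4 had more covered length in both resistant than in both parental lists, 1 had less and 15 overlapped or held no peak, where the shares over all such stretches with a peak were 12.3% and 13.8%. The step just after the window had 25286 and 24395 bp under parental peaks and 25526 and 24896 bp under resistant peaks. The step just before it was nearly empty in all 4, with 0 to 1159 bp.

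The RNA of the genes around GPX3 was then compared. In the order of the GRCh38.p14 gene table, which served for order alone, the 10 nearest tested genes on each side were taken. Of these 20 genes, CCDC69 rose and SPARC fell, against 2.96% of all tested genes that rose and 3.41% that fell. The 2 nearest tested genes after GPX3, TNIP1, an inhibitor of NF-kB signalling, and ANXA6, a calcium-dependent membrane-binding annexin, did not pass in this fit. TNIP1 had a parental mean of 582 ± 17.3 and a resistant mean of 647 ± 39.2 CPM (SD, n = 2), and ANXA6 had 262 ± 1.38 and 281 ± 9.94 CPM. Their log2 fold changes were 0.15 ± 0.14 and 0.10 ± 0.13 (SE), with edgeR adjusted p-values of 0.523 and 0.666. Before GPX3, ZNF300, a zinc finger gene, and DCTN4, a dynactin subunit, did not pass either and had log2 fold changes of -0.05 and 0.11 (edgeR adjusted p = 0.897 and 0.792). DCTN4 rests on which resistant library is kept: its log2 fold change was -0.25 without replicate 1 and 0.39 without replicate 2. TNIP1 stood at 0.21 without resistant replicate 2 and ANXA6 at 0.14 without resistant replicate 1. Those fits take their spread from the parental pair alone, so no call is given for them.

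CCDC69, a coiled-coil protein gene, follows ANXA6. It had 10 and 7 parental counts and 160 and 77 resistant counts, or 0.974 and 0.679 CPM against 10.3 and 5.98 CPM. Both resistant libraries were above both parental ones, at 4.38 and 2.08 TPM, far below GPX3 on that scale. The log2 fold change was 3.29 ± 0.44 (SE, edgeR adjusted p = 0.0167), beside 3.27 for GPX3. On log2(TPM + 1), which understates the change of low genes, the values were 1.62 for CCDC69 and 3.20 for GPX3. Its adjusted p ranged from 5.48e-11 (edgeR with the replicate block) to 0.0497 (limma-trend on log2(TPM + 1)) over the alternatives that kept all 4 libraries.

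SPARC, a secreted matrix glycoprotein, lies further along on the same side. Parental levels were 979 and 990 CPM and resistant levels 508 and 586 CPM, with a log2 fold change of -0.85 ± 0.15 (SE, edgeR adjusted p = 0.033). The call ended when either parental library was left out. The log2 fold change of CCDC69 was 3.56 without parental replicate 1 and 3.05 without parental replicate 2.

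**Figure D4:**
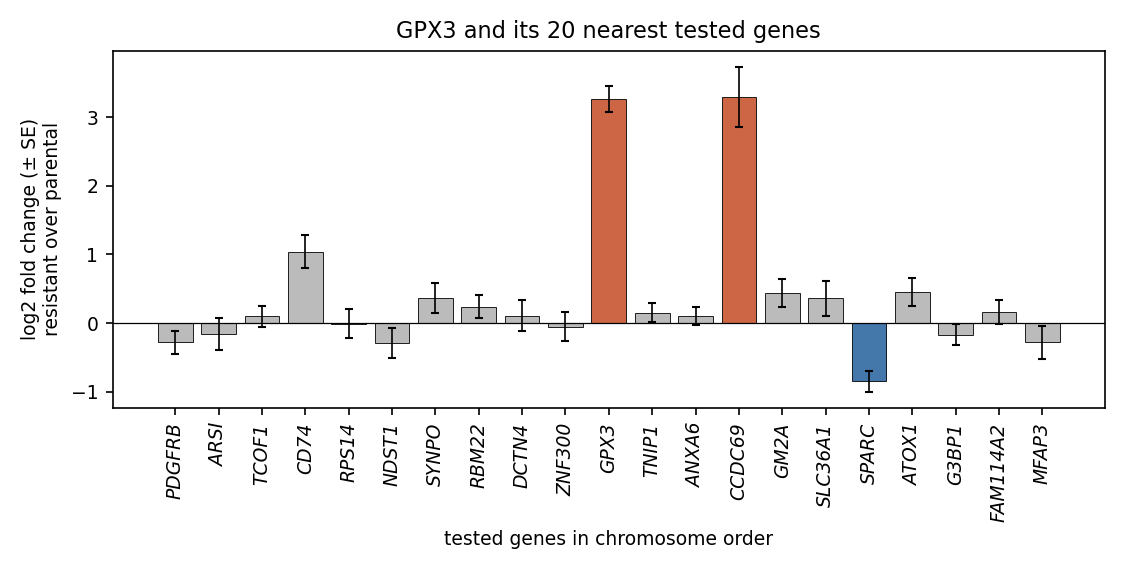
Log2 fold change of the resistant over the parental line with its SE (vertical axis) for GPX3 and the 10 tested genes on each side, in chromosome order. Orange bars passed the test as higher, the blue bar as lower and grey bars did not pass. GPX3 at 3.27 and CCDC69 at 3.29 stand out from the genes between and around them. CD74 comes next at 1.04 ± 0.24 (SE) and did not pass (edgeR adjusted p = 0.061).

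The genes that supply, use or complement the glutathione peroxidases were described in 7 lists, drawn from general knowledge of the pathways. These lists were chosen with earlier results of these data known, so their counts are descriptions. Together they held 119 tested genes, of which 11 rose and 4 fell, or 9.24% and 3.36%, against 2.96% and 3.41% of all tested genes. Their median log2 fold change was 0.22, against 0.02 over all tested genes. These values for all tested genes are the background of each list below, and nothing is read from the counts of single lists. Among the 15 calls, 2 remained without parental replicate 1 and 4 without parental replicate 2, where the lone parental library is assumed to vary like the resistant pair.

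The list of NADPH supply held 17 tested genes, among them NAD kinases and pentose phosphate enzymes that do not make NADPH themselves. Of the 17 genes, with a median log2 fold change of 0.22, 5 rose, against 2.96% of all tested genes, and 12 did not pass. The count fell to 2 with limma-trend on TPM, and to 0 without either parental library. IDH2, the mitochondrial isocitrate dehydrogenase, rose from 108 ± 8.52 to 256 ± 30.2 CPM (SD, n = 2), a log2 fold change of 1.24 ± 0.16 (SE, edgeR adjusted p = 0.0148). PGD, a dehydrogenase of the pentose phosphate pathway, the cytosolic IDH1 and the folate enzyme MTHFD1 rose as well, with log2 fold changes of 0.72, 1.08 and 0.86.

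Glutathione synthesis and turnover had 1 gene higher and 17 that did not pass, of 18 tested, with a median log2 fold change of 0.42 and 16 positive values. ANPEP, a membrane aminopeptidase of the brush border that helps to split the dipeptide left from glutathione, rose from 145 ± 5.38 to 230 ± 3.02 CPM (log2 fold change 0.67 ± 0.13 SE, edgeR adjusted p = 0.0442). Its call ended in 5 of 13 alternatives, among them limma-trend on TPM and the fits without either parental library. Some central genes of the list were looked at after their values were seen. GSR, glutathione reductase, had parental levels of 113.6 and 109.9 CPM and resistant levels of 206 and 132 CPM, and did not pass (edgeR adjusted p = 0.163). SLC7A11, the cystine importer, had parental levels of 22 and 19.4 CPM and resistant levels of 85.0 and 24.8 CPM, and did not pass (edgeR adjusted p = 0.163). GCLC, the catalytic subunit of the first enzyme of glutathione synthesis, had 34.2 and 35.7 CPM against 60.8 and 32.3 CPM, which overlap (edgeR adjusted p = 0.415). GSS, glutathione synthetase, had 104.4 and 104.6 CPM against 152.5 and 166.1 CPM, and did not pass (edgeR adjusted p = 0.0576). In GSR, SLC7A11 and GCLC resistant replicate 1 was the higher of the pair in CPM. In GSS, GPX3, GPX4 and GPX1 resistant replicate 2 was the higher, so the list was not uniform in this.

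Glutathione transferases, which join glutathione to electrophiles, had 2 rises and 1 fall among 16 tested genes, and 13 genes did not pass. GSTM4 rose from 12.8 ± 1.54 to 29.2 ± 4.88 CPM (log2 fold change 1.19 ± 0.21 SE, edgeR adjusted p = 0.0304) and GSTK1 from 81.5 ± 0.739 to 136.5 ± 15.2 CPM (0.74 ± 0.15 SE, adjusted p = 0.0439). GSTM3 fell from 24.1 ± 1.17 to 10.0 ± 0.997 CPM (log2 fold change -1.26 ± 0.19 SE, edgeR adjusted p = 0.022). GSTM3 and GSTM4 belong to a cluster of related genes between which reads can be split, and their levels are uncertain to that extent. Without parental replicate 1 none of these 3 calls held.

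Among other enzymes of peroxide and superoxide removal, PRDX2 rose, NXN fell and 22 of 24 tested genes did not pass. PRDX2, a cytosolic peroxiredoxin that reduces hydrogen peroxide with thioredoxin, rose from 19.3 and 20.8 CPM to 41.6 and 71.9 CPM (edgeR adjusted p = 0.0382). NXN, nucleoredoxin, fell from 125 ± 3.28 to 53.9 ± 12.97 CPM (log2 fold change -1.22 ± 0.20 SE, edgeR adjusted p = 0.0264). The call of PRDX2 ended with limma-voom and that of NXN without parental replicate 1.

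The supply of selenocysteine was described by 15 tested genes, of which SCLY rose and 14 did not pass, with a median log2 fold change of 0.31. SCLY, selenocysteine lyase, releases selenium from selenocysteine for reuse, and rose from 19.6 ± 0.0621 to 40.8 ± 3.08 CPM (log2 fold change 1.05 ± 0.16 SE, edgeR adjusted p = 0.0231). The call ended with limma-trend on TPM and without either parental library. Of 11 other selenoproteins tested, 0 passed with edgeR, 6 had an unadjusted p under 0.05, as had 27% of all tested genes, and DESeq2 called 1 lower, where it called 9.28% of its 13907 genes in either direction. By limma-voom 0 passed and by limma-trend on TPM 1 or 2 were lower, depending on the pseudocount, and the replicate block called 3 lower. Their median log2 fold change was -0.28, and 3 of the 11 values were positive. The most abundant were SELM, a selenoprotein of the endoplasmic reticulum, at 116 ± 4.79 and 75.8 ± 11.7 CPM (log2 fold change -0.61 ± 0.16 SE, edgeR adjusted p = 0.0834), and C11orf31, selenoprotein H, at 92.9 ± 2.80 and 113 ± 38.3 CPM (0.28 ± 0.24 SE, adjusted p = 0.495). With all 4 libraries kept, SELM passed as lower only with limma-trend, on either TPM scale. Its log2 fold change lay between -0.79 and -0.46 over the 13 alternatives. C11orf31 rests on which resistant library is kept: it stood at 0.59 without replicate 1 and at -0.12 without replicate 2.

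In the list of lipid peroxidation and ferroptosis, the setting in which GPX4 acts, 1 gene rose, 2 fell and 15 of 18 did not pass. SAT1, a polyamine acetyltransferase, fell from 619 ± 8.55 to 191 ± 1.54 CPM (log2 fold change -1.70 ± 0.14 SE, edgeR adjusted p = 0.00518). TFRC, the transferrin receptor that takes up iron, fell from 343.5 ± 0.0566 to 186 ± 37.2 CPM (log2 fold change -0.88 ± 0.18 SE, edgeR adjusted p = 0.0446). HMOX1, heme oxygenase, which frees iron from heme, rose from 91.3 ± 1.98 to 179.5 ± 43.6 CPM (log2 fold change 0.98 ± 0.20 SE, edgeR adjusted p = 0.0448). The call of SAT1 held in the alternatives that kept all 4 libraries. Its log2 fold change lay between -1.75 and -1.62 over all 13 alternatives. The calls of TFRC and HMOX1 ended in 6 of them each, among them limma-trend on TPM and the fits without either parental library.

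**Figure D5:**
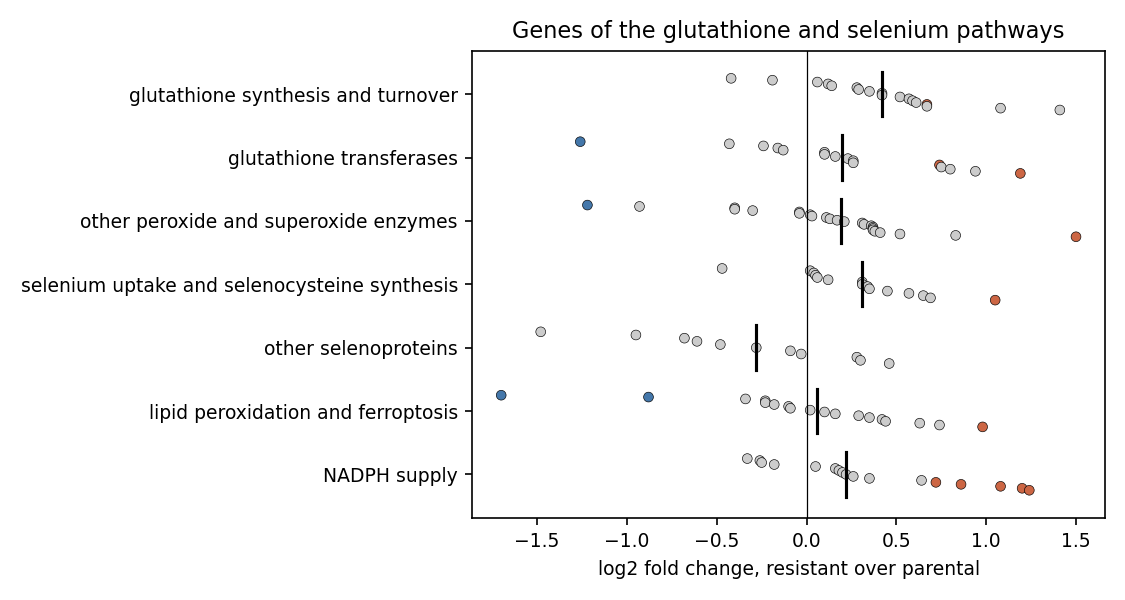
Log2 fold change of the resistant over the parental line (horizontal axis) for the tested genes of 7 lists, with 1 point per gene. Orange points passed the test as higher and blue points as lower, grey points did not pass, and vertical strokes are list medians. NADPH supply has 5 orange points, and the other selenoproteins have none of either colour and a median of -0.28.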

How the data were processed

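RNA was analysed from 2 parental and 2 resistant libraries and H3K27ac from 2 libraries of each line; the 4 DNA inputs were not used here. The authors deposited RSEM estimated counts and TPM for 20114 symbols per the file headers and names, and 1 peak list per library with a score, whose caller no source at hand names. Tools in the submitters' processing notes are DESeq2 1.40.2, RSEM and STAR. Coordinates were read as hg19, since chromosome 1 peaks end at up to 249240417.

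Estimated counts (3.16% fractional) were rounded, filtered with filterByExpr (12792 genes), scaled by TMM and tested with edgeR 4.0.16's quasi-likelihood F test (R 4.3.3), line as the term, with Benjamini-Hochberg adjustment at 0.05. SE is the log2 fold change over the root of F. On simulated data with 200 of 12692 genes changed 4-fold, 100% were recovered and 1.48% of calls were false. The simulation used 1 common dispersion for both lines and 4-fold changes alone. Its shares do not carry over to the unequal spread of the lines or to smaller differences. P-values set the difference between the lines against the spread between libraries of a line. Whether that spread reflects separate cultures is not known. Peaks were merged with Python 3.11.15 and pandas 2.3.3. The planned description of member proteins was not run.

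The named genes were the members, up to 2 rises and 2 falls per list (or the 2 most abundant where none passed), called or nearest neighbours and the 5 genes most like GPX3. PGD, IDH1, MTHFD1, GSR, SLC7A11, GCLC, GSS and CD74 were named after their values were seen. Members and lists were chosen with earlier results of these data known. Alternatives used DESeq2 1.42.0 and limma 3.58.1, with pseudocounts of 1 and 0.1 on TPM for genes at 1 or more in 2 libraries. Where 1 library was left out, the spread came from the line that kept 2, which sets how many genes pass. A result withheld for evaluation is not reported here.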

Additional observations from a re-analysis of the deposited data

How the results depend on the processing

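Leaving out 1 library gave log2 fold changes of 3.06 to 3.45 for GPX3, 0.45 to 0.91 for GPX4, 0.10 to 0.63 for GPX1 and -0.29 to -0.23 for GPX8, and with library totals GPX8 stood at -0.17. Members called higher numbered 2 (GPX3 and GPX4) with library totals, DESeq2, limma-trend on TPM with either pseudocount and the replicate block, and 1 to 3 when a library was left out, while those called lower then numbered 0 to 1.

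Over all genes, 576 were higher and 715 lower with DESeq2, 243 and 282 with limma-trend on log2(TPM + 1), 217 and 243 on log2(TPM + 0.1), and 860 and 1020 with the replicate block, against 379 and 436. Leaving out 1 library gave 141 to 3374 higher and 264 to 3479 lower. In the pathway lists limma-trend gave 7 higher with either pseudocount and the replicate block gave 17 higher and 8 lower, against 11 and 4, and leaving out 1 library gave 1 to 56 higher and 1 to 25 lower. Among the neighbours of GPX3, 2 were higher with library totals, DESeq2, limma-trend with either pseudocount and the replicate block, and leaving out 1 library gave 1 to 7 higher and 0 to 5 lower. The log2 fold change of DCTN4 turned to -0.25 without resistant replicate 1, and ranged up to 0.39 when 1 library was left out. Nothing at hand says that replicate numbers pair the samples. The differences between replicates 1 and 2 of the 2 lines had a correlation of -0.0491 across genes. With parental replicates as close as here (chi-square per gene 1.93), this value cannot show whether samples were paired. Of 325 alternative values for 25 other named genes, 277 kept their side and direction, 36 lost the call, 8 gained one and 4 turned sign. Beside DCTN4 these were C11orf31, from -0.12 to 0.59 when 1 library was left out, and ZNF300, at 0.03 with library totals and from -0.15 to 0.04 when 1 library was left out. The cause of these changes was not tested.

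For H3K27ac a score of 5 or more gave 1 shared region in the window and 1965 gained and 1957 lost over all chromosomes, against 3055 and 3496. Requiring 50% cover gave 5 gained and 1 shared in the window and 6176 shared over all chromosomes, against 19572. Leaving out 1 library gave 2 to 10 gained, 0 to 2 lost and 4 to 6 shared in the window, and 4867 to 14829 gained, 4415 to 19271 lost and 21338 to 24991 shared over all chromosomes. The first gained region was gained in every setting, within a longer region when peaks within 500 bp were merged.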
